A study of Homo sapiens with 9 samples.

Results

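The genes described here make ribosomes: 40 listed genes of ribosome biogenesis and RNA polymerase I, among 59453 gene names in the count table of MDA-MB-231 cells. They were taken by name from a list of nucleolar and polymerase genes, drawn up with earlier results of these data known, and all 40 had a row and passed the expression filter that left 16556 genes for testing. MDA-MB-231 is an established human triple-negative breast cancer line, grown here in DMEM with serum. The design had 3 groups of 3 libraries each: cells left untreated, and cells given the copper chelator TEPA for 8 h or for 24 h. The sample labels give 8 mM TEPA and the text on the RNA-Seq data 4 mM, so the concentration is uncertain. No vehicle and no separate untreated cells for each time were among the groups, so both times were set against the same untreated libraries. Nothing in the labels states that the replicates came from separate cultures, and p-values measure the spread between these libraries.

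Ribosome production begins in the nucleolus, where RNA polymerase I copies the ribosomal DNA into a long precursor RNA. Small nucleolar ribonucleoproteins (snoRNPs) guide chemical marks on it, box C/D particles by methylation and box H/ACA particles by pseudouridylation, while large assemblies fold, cut and package it into the small and the large subunit. Many of these genes are textbook targets of the transcription factor MYC, which binds the motif CACGTG.

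Raw counts per gene were scaled with edgeR's TMM factors and are given as CPM, a gene's share of the scaled library total, and differences as log2 fold changes with standard errors (SE). A gene was called at a Benjamini-Hochberg adjusted p under 0.05 over all genes tested with edgeR's quasi-likelihood test, fitted to all 9 libraries. Libraries held between 34633755 and 49342659 counts, of which the 40 genes took between 0.571% and 0.768%. VIM and CD44, high in this line, were at least at 3240 and 793 CPM in every library. Of 3 receptors listed as low in triple-negative cells, ESR1 and PGR were at most at 0.240 and 0 CPM. The remaining receptor, ERBB2, was between 51.9 and 87.1 CPM. Of the epithelial markers KRT8 was at least at 328 CPM while EPCAM was at most at 1.86 CPM.

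A library that stood apart bears on every comparison with untreated cells. All 40 genes had their lowest untreated level in untreated replicate 1, as did 39.2% of all genes tested. Their median log2 difference from the mean of replicates 2 and 3 was -0.22. Values without this library are therefore given beside the main counts.

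Sequence at the gene starts was read for 34 of the 40 genes from RefSeq windows on GRCh38.p14, each with 250 bases before and 50 after a start, 42 windows in all because 8 genes have 2. NOP58, NOLC1, RRP12, BOP1, RRS1 and RRP1B are the other members. The motif CACGTG, which reads the same on both strands, was in a window of 15 of the 34 genes (44.1%), of 8.77% of all genes with a window and of 12.3% of those that were also tested. By position, 11 of the 34 (32.4%) had it reaching or past the start, against 1.81% of genes tested, and 4 of the 34 (11.8%) wholly before the start, where 1215 of 11042 genes tested had it. Among 111 other genes of the pathway with a window 24.3% had the motif, and among 63 cytosolic ribosomal protein genes 6.35%. A match is a description of letters, and no binding was measured. The sequences below are shown because they place the motif, in capitals, at the starts of the genes whose levels are given by library later on. Each is 30 bases long and written 5′ to 3′ on the strand of its gene.
FBL, chr19:39846356-39846385, minus strand: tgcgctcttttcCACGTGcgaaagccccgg
GAR1, chr4:109815781-109815810, plus strand: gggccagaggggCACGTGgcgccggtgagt
WDR43, chr2:28894658-28894687, plus strand: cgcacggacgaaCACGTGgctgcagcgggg
UTP20, chr12:101280083-101280112, plus strand: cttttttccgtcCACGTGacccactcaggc
NOP14, chr4:2963374-2963403, minus strand: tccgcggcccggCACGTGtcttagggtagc
LTV1, chr6:143843354-143843383, plus strand: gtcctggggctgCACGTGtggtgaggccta
PES1, chr22:30591880-30591909, minus strand: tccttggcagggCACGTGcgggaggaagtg
NOP2, chr12:6568242-6568271, minus strand: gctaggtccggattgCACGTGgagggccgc
DDX21, chr10:68956604-68956633, plus strand: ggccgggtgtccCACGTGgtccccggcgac
MYBBP1A, chr17:4555340-4555369, minus strand: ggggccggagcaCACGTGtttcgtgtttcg

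The level of MYC itself was 98.4, 108 and 107 CPM without TEPA, 100, 94.4 and 97.6 CPM at 8 h, and 87.7, 95.3 and 85.4 CPM at 24 h. It was not called at 8 h (log2 fold change -0.10, edgeR adjusted p = 0.0975) and fell at 24 h (-0.22, adjusted p = 0.00112).

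After 8 h of TEPA most of these genes were higher than in untreated cells, and after 24 h most were lower. At 8 h, 27 of the 40 rose and 3 fell, where 25.2% of all genes tested rose and 24.5% fell. At 24 h, 24 fell and 4 rose, where 26.8% of all genes tested fell and 25.7% rose. In all, 13 of the genes did both, being called higher at 8 h and lower at 24 h, and no member did the reverse. The share of all genes tested that did both was not counted. With 1 library left out in turn, the 8 h call of FBL held in 0 of 6 fits and that of DKC1 in 1. For NOP58 it held in 2 and for WDR43 in 3. Without untreated replicate 1, FBL, DKC1, NOP58 and WDR43 all lost it. The 24 h call held in 1 of 6 fits for RRP1B and in 3 for LTV1. The median log2 fold change of the 40 was 0.24 at 8 h and -0.18 at 24 h, beside -0.0013 and 0.0023 over all genes tested. Most changes were below the log2 limit of 0.5, which 6 genes passed upward at 8 h and 1 passed downward at 24 h, where 10.1% and 8.46% of all genes tested did so. In the opposite directions no member came near it, with extremes of -0.26 for WDR75 and 0.26 for UTP20, where 7.67% of all genes tested fell beyond it at 8 h and 10.2% rose beyond it at 24 h. In bulk RNA, fewer cells that express a gene and less of its RNA per cell cannot be told apart, and a scaled count is a share of the library and not an amount per cell.

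Libraries of the groups did not overlap for most members, as for most of all genes tested, and the members differed mainly in direction. For 26 of the 40 every library at 8 h was above every untreated library, and for 3 every one was below, where 29.2% and 28.6% of all genes tested were so. At 24 h, 22 were below and 3 above, beside 28.9% and 28.4%. Without untreated replicate 1, the genes called at 8 h were 23 higher and 5 lower, with a median of 0.18, and at 24 h 30 lower and 2 higher, with a median of -0.21. Mitochondrially encoded genes took from 1.79% to 2.91% of counts in untreated cells, from 3.61% to 4.02% at 8 h and from 1.89% to 2.02% at 24 h, so their share was also highest at 8 h. With these genes left out of the library sizes the medians were 0.23 and -0.18, and the numbers called were the same.

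**Figure D1:**
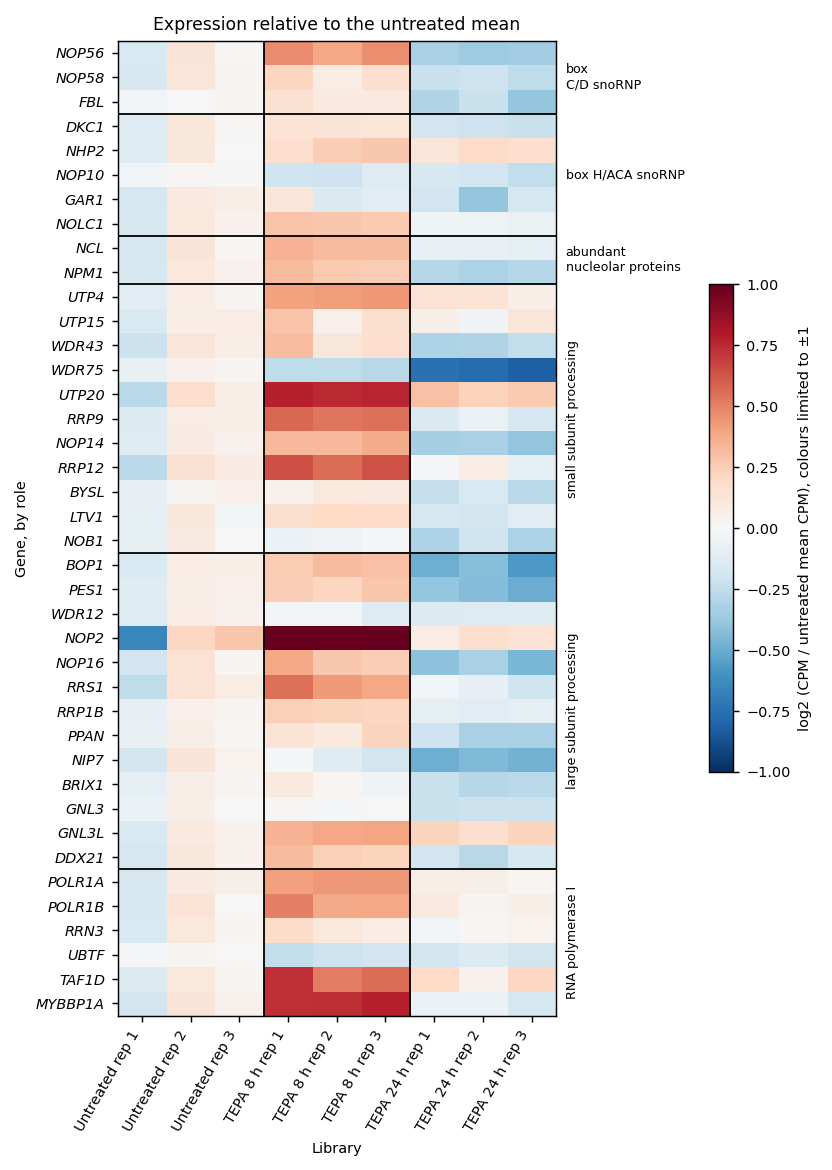
Each row is a gene, grouped by role, and each column a library; colour is the log2 ratio of its CPM to the untreated mean, with colours limited to ±1. The 8 h columns are mostly red and the 24 h columns mostly blue, WDR75, NOP10 and UBTF are blue at both times, and untreated replicate 1 is pale blue in nearly every row.

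Between 8 h and 24 h, 34 of the 40 genes fell and none rose with edgeR, where 28.8% of all genes tested fell and 26% rose. The median log2 difference was -0.38, beside -0.0155 over all genes tested. With DESeq2 no member rose between the times either, and 0 were so at an unadjusted edgeR p under 0.05. Of the falls 12 passed the log2 limit of 0.5, where 10.8% of all genes tested fell and 10.4% rose beyond it. For 35 genes every library at 24 h was below every library at 8 h, and for UBTF every one was above, where 32.4% and 29.6% of all genes tested were so. Untreated libraries take no part in this comparison, so untreated replicate 1 does not enter its group means. The 6 genes not called were NHP2, NOP10, UTP15, WDR12, RRN3 and UBTF, with log2 differences from -0.12 to 0.05. With 3 libraries against 3, an exact permutation test of a single gene cannot give a p below 0.1.

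**Figure D2:**
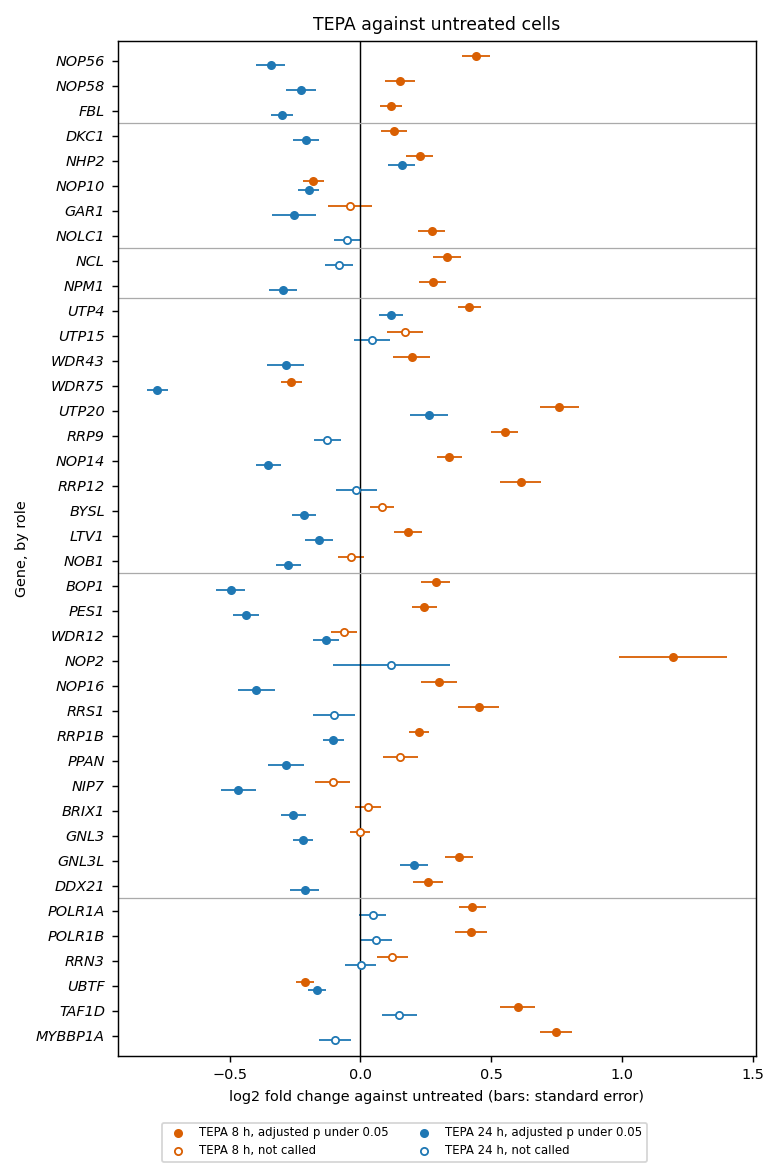
Log2 fold change against untreated cells on the x axis for each gene on the y axis, at 8 h in orange and at 24 h in blue; bars are standard errors and filled points are called. Orange points lie mostly right of 0 and blue points mostly left, and the gap between them is the fall from 8 h to 24 h.

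**Figure D3:**
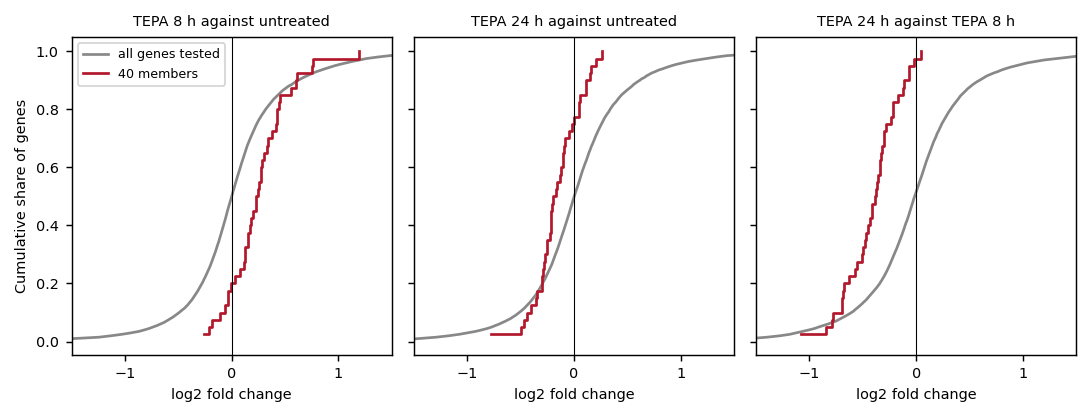
Cumulative share of genes (y axis) by log2 fold change (x axis) in the 3 comparisons, for the 40 members in red and all 16556 genes tested in grey. The x axis ends at ±1.5. At its middle the red curve is right of the grey one at 8 h (median 0.24) and left of it at 24 h and between the times (medians -0.18 and -0.38). The red curve starts at -0.26 at 8 h and reaches its top at 0.26 at 24 h, whereas the grey curve spans the axis.

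Levels between genes were compared per kilobase of exon, as RPKM over the exon bases of each gene in GENCODE 44. These bases join the exons of all annotated transcripts, whether or not these were expressed here. The order of the genes therefore depends on the annotation too. In untreated cells NPM1 was highest at 145 ± 13.7 RPKM and NCL next at 127 ± 13.0 RPKM (SD, n = 3). Within the untreated libraries NPM1 was higher than NCL by 16.2, 16.6 and 21.3 RPKM, while both varied together between libraries. NHP2 at 77.3 ± 6.41 RPKM, NOLC1 at 68.9 ± 6.45 RPKM and FBL at 58.3 ± 1.24 RPKM followed. NHP2 was higher than NOLC1 by 9.1, 9.6 and 6.4 RPKM within the untreated libraries. NPM1 and NCL together held between 36.3% and 37.7% of all counts of the 40 genes in every library. The lowest were GNL3L at 4.37 ± 0.383 RPKM and NOP2 at 0.215 ± 0.0679 RPKM. In GENCODE 44, 54.4% of the exon bases of NOP2 also belong to a readthrough gene on the same strand, and featureCounts by default assigns no read that fits more than 1 gene. The part of this overlap in the NOP2 level was not tested.

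The 3 listed core proteins of box C/D snoRNPs, NOP56, NOP58 and FBL, were called higher at 8 h and lower at 24 h, FBL by the smallest rise. NOP56, a scaffold of the particle on chromosome 20 from 2652593 to 2658393, was at 178, 217 and 200 CPM without TEPA, 275, 259 and 274 CPM at 8 h and 158, 155 and 155 CPM at 24 h. Its 3 groups did not overlap, and 8 h was the highest. The log2 fold change was 0.44 (SE 0.05, edgeR adjusted p = 7.07e-06) at 8 h and -0.34 (SE 0.05, adjusted p = 7.5e-05) at 24 h. Its partner scaffold NOP58 was at 97.8, 119 and 111 CPM untreated, 127, 115 and 123 CPM at 8 h, and 93.97, 94.96 and 91.57 CPM at 24 h, with log2 fold changes of 0.15 (adjusted p = 0.0402) and -0.23 (adjusted p = 0.00395). Untreated and 8 h libraries of NOP58 overlapped, and its 8 h call held in 2 of 6 fits with 1 library left out, with 0.08 (adjusted p = 0.19) without untreated replicate 1. FBL, the methyltransferase of the particle, was at 122, 124 and 128 CPM untreated, 139, 134 and 134 CPM at 8 h, and 102, 107 and 95.5 CPM at 24 h. Its rise at 8 h was small (0.12, adjusted p = 0.0305) and was called in 0 of those 6 fits, whereas its fall at 24 h (-0.30, adjusted p = 2.22e-05) was called in all 6.

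Box H/ACA proteins did not move together. DKC1, the pseudouridine synthase, was at 107, 127 and 119 CPM in untreated cells, 129, 129 and 128 CPM at 8 h and 102.9, 101.7 and 100.6 CPM at 24 h. Its log2 fold changes were 0.13 (edgeR adjusted p = 0.0387), called in 1 of 6 fits with 1 library left out (0.07 without untreated replicate 1), and -0.21 (adjusted p = 0.00204). NHP2, a core RNA-binding protein, was higher at both times, with 104, 123 and 114 CPM untreated, 128, 135 and 138 CPM at 8 h and 124, 130 and 128 CPM at 24 h. The NHP2 fold changes were 0.23 (adjusted p = 0.00178) and 0.16 (adjusted p = 0.017), and the latter was lost without untreated replicate 1 (0.10, adjusted p = 0.0711) or TEPA 24 h replicate 2 (0.14, adjusted p = 0.0547). NOP10, the smallest core protein, went the other way from NHP2 and was lower at both times, at -0.18 (adjusted p = 0.00147) and -0.20 (adjusted p = 6.07e-04).

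GAR1 and NOLC1 completed this group. GAR1, the core protein with glycine- and arginine-rich ends, was at 23.1, 27.8 and 27.2 CPM untreated, 28.3, 23.6 and 24.3 CPM at 8 h, and 22.8, 19.8 and 23.1 CPM at 24 h. No difference was called at 8 h (-0.04, adjusted p = 0.734), and at 24 h it was lower (-0.25, edgeR adjusted p = 0.0199) in 3 of the 6 fits without 1 library. NOLC1, a chaperone of snoRNPs, was at 244, 293 and 282 CPM untreated, 333, 329 and 329 CPM at 8 h and 266, 264 and 262 CPM at 24 h. It rose at 8 h (0.27, adjusted p = 3.76e-04) and at 24 h was within the untreated range (-0.05, adjusted p = 0.424), but was called lower there without untreated replicate 1 (-0.13, adjusted p = 0.00361). Relative to the untreated mean, the NHP2 to NOP10 ratio was 1.29 to 1.37 at 8 h and 1.22 to 1.33 at 24 h, against 0.934 to 1.07 in untreated libraries.

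The most abundant nucleolar proteins were both higher at 8 h. NCL, nucleolin, which binds the precursor RNA and ribosomal chromatin, was at 1010, 1241 and 1144 CPM untreated, 1444, 1413 and 1412 CPM at 8 h and 1073, 1075 and 1062 CPM at 24 h. The log2 fold change was 0.33 (SE 0.05, edgeR adjusted p = 1.19e-04) at 8 h and -0.08 (adjusted p = 0.227) at 24 h, where all libraries lay inside the untreated range. With untreated replicate 1 left out, NCL fell at 24 h (-0.16, adjusted p = 0.0011). NPM1, nucleophosmin, a chaperone that forms the outer nucleolus, was at 1076, 1294 and 1243 CPM untreated, 1500, 1442 and 1432 CPM at 8 h, and 990, 964 and 987 CPM at 24 h. NPM1 rose at 8 h (0.28, adjusted p = 4.72e-04) and fell below every untreated library at 24 h (-0.30, adjusted p = 2.17e-04). GENCODE lists 49 NPM1 pseudogenes, and reads shared with such copies may have been lost or split. Their summed counts were between 1139 and 2134 per library, beside 35514 to 60029 for NPM1.

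**Figure D4:**
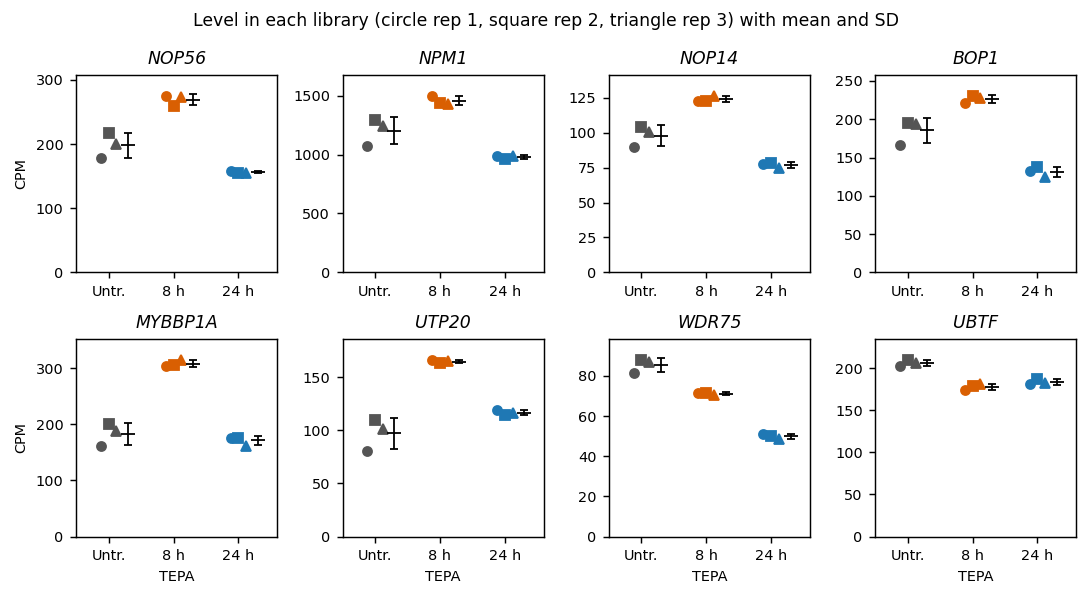
CPM (y axis, from 0) of 8 members in each untreated, TEPA 8 h and TEPA 24 h library, with symbols for replicates and the mean and SD beside them. NOP56, NPM1, NOP14 and BOP1 peak at 8 h and end below the untreated libraries, MYBBP1A returns into their range, UTP20 stays above them, and WDR75 and UBTF are below them at both times.

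Among the 11 genes of small subunit processing 7 rose (63.6%) and 1 fell (9.09%) at 8 h. At 24 h 6 fell (54.5%) and 2 rose (18.2%). Of all genes tested 25.2% rose and 24.5% fell at 8 h, and 26.8% fell and 25.7% rose at 24 h. The rise of UTP4 at 24 h (0.12, edgeR adjusted p = 0.0395) was called in 2 of 6 fits with 1 library left out. Its 24 h libraries overlapped the untreated ones. UTP20, a large scaffold of the early small subunit particle, had the strongest rise, from 80.8, 110 and 101 CPM untreated to 166, 163 and 165 CPM at 8 h, and 119, 114 and 117 CPM at 24 h. All TEPA libraries were above all untreated ones, and the fold changes were, on the log2 scale, 0.76 (SE 0.07, edgeR adjusted p = 6.9e-07) and 0.26 (SE 0.07, adjusted p = 0.0074). RRP12, which acts in export of the pre-ribosome, was at 73.7, 98.0 and 93.3 CPM untreated, 138, 130 and 138 CPM at 8 h and 87.2, 92.8 and 82.4 CPM at 24 h. Its rise at 8 h was 0.61 (adjusted p = 8.5e-06), and at 24 h it was within the untreated range (-0.02, adjusted p = 0.884) and without untreated replicate 1 called lower (-0.13, adjusted p = 0.0322). NOP14, an assembly factor of the same early particle, was at 89.5, 104 and 101 CPM untreated, 123, 123 and 127 CPM at 8 h, and 77.7, 78.2 and 74.7 CPM at 24 h. The NOP14 groups were fully apart, at 0.34 (adjusted p = 3.14e-05) and -0.35 (adjusted p = 2.04e-05).

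At 8 h WDR75 ran against the common course, as did NOP10 and UBTF, while at 24 h it fell like most members. WDR75 belongs with UTP4, UTP15 and WDR43 to the t-UTP subcomplex, which joins the precursor RNA as it is transcribed. It lies on chromosome 2 from 189441446 to 189475552. Its level was 81.2, 88.0 and 86.8 CPM untreated, 71.6, 71.5 and 70.2 CPM at 8 h and 50.97, 50.01 and 48.5 CPM at 24 h. Each group lay below the one before without overlap, and the log2 fold changes were -0.26 (SE 0.04, edgeR adjusted p = 7.61e-05) and -0.78 (SE 0.04, adjusted p = 7.96e-10), the lowest of the 40 genes at both times. The other subcomplex genes differed from it in direction at 8 h: UTP4 rose (0.42, adjusted p = 1.94e-06), WDR43 rose (0.20, adjusted p = 0.0292), and UTP15 was at 0.17 (adjusted p = 0.0532) and not called. UTP15 was called higher at 8 h in 2 of 6 fits with 1 library left out. These were without untreated replicate 2 (0.20, adjusted p = 0.0424) and without TEPA 8 h replicate 2 (0.22, adjusted p = 0.0268). WDR43 was at 68.9, 87.0 and 83.9 CPM untreated, 98.8, 86.3 and 89.9 CPM at 8 h, and 64.6, 65.0 and 67.5 CPM at 24 h. Its untreated and 8 h libraries overlapped and the 8 h call held in 3 of 6 fits without 1 library (0.10 without untreated replicate 1), while the 24 h libraries were all lower (-0.29, adjusted p = 0.00294).

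The remaining small subunit genes include late factors. LTV1, which leaves the particle as it matures, was at 37.0, 42.6 and 38.7 CPM untreated, 44, 45.33 and 44.98 CPM at 8 h and 35.1, 34.7 and 36.4 CPM at 24 h, with log2 fold changes of 0.18 (edgeR adjusted p = 0.00912) and -0.16 (adjusted p = 0.0193). The 24 h call of LTV1 held in 3 of 6 fits without 1 library, and 34.7% of its exon bases are shared with readthrough genes. BYSL and NOB1, the latter the nuclease that makes the final cut of the small subunit RNA, were not called at 8 h (0.08 and -0.04) and fell at 24 h (-0.22 and -0.28). RRP9, a protein of the snoRNP that starts small subunit cleavage, rose at 8 h (0.55, adjusted p = 5.27e-07) and was at -0.13 at 24 h (adjusted p = 0.0565). At 24 h RRP9 fell if untreated replicate 1 was left out (-0.19, adjusted p = 0.00119) or if TEPA 24 h replicate 2 was (-0.16, adjusted p = 0.0342).

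Of the 13 genes of large subunit processing 8 rose (61.5%) and none fell at 8 h with edgeR, nor with DESeq2 (0 at an unadjusted edgeR p under 0.05). At 24 h 10 fell (76.9%) and 1 rose (7.69%). Of all genes tested 25.2% rose and 24.5% fell at 8 h, and 26.8% fell and 25.7% rose at 24 h. BOP1, PES1 and WDR12 form the PeBoW complex, needed to process the large subunit RNA. BOP1 was at 167, 196 and 193 CPM untreated, 221, 231 and 228 CPM at 8 h, and 132, 138 and 124 CPM at 24 h, with the groups fully apart. Its log2 fold changes were 0.29 (SE 0.05, adjusted p = 3.94e-04) and -0.50 (SE 0.05, adjusted p = 1.73e-06). PES1 was at 110, 125 and 123 CPM untreated, 141, 138 and 144 CPM at 8 h, and 91.2, 88.2 and 84.7 CPM at 24 h, at 0.24 (adjusted p = 5.9e-04) and -0.44 (adjusted p = 1.99e-06). WDR12, the remaining subunit, was at -0.06 (adjusted p = 0.331) and -0.13 (adjusted p = 0.0373), and the latter was called in 1 of 6 fits without 1 library. Without untreated replicate 1, WDR12 was called lower at 8 h as well (-0.12, adjusted p = 0.0254). Relative to the untreated mean the PES1 to WDR12 ratio was 1.21, 1.18 and 1.33 at 8 h and 0.840, 0.810 and 0.773 at 24 h, while the BOP1 to PES1 ratio stayed between 0.933 and 1.07 in every library.

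NOP2, an rRNA methyltransferase on chromosome 12 from 6556863 to 6568691, had the largest fold change of the 40 genes but the fewest counts. The counts were 24, 53 and 48 without TEPA, then 92, 79 and 96 after 8 h, then 54, 49 and 40 after 24 h. Its log2 fold change was 1.19 (SE 0.21, edgeR adjusted p = 1.85e-04) at 8 h and 0.12 (SE 0.22, adjusted p = 0.687) at 24 h. RRS1, which helps place the 5S RNA particle in the large subunit, was at 51.7, 68.0 and 64.8 CPM untreated, 89.9, 82.5 and 80.2 CPM at 8 h, and 60.2, 58.1 and 53.5 CPM at 24 h. It rose at 8 h (0.45, adjusted p = 1.94e-04) and was within the untreated range at 24 h (-0.10, adjusted p = 0.303), and with untreated replicate 1 left out it was called there (-0.21, adjusted p = 0.00381). NOP16, a nucleolar assembly protein, was at 51.8, 65.6 and 60.3 CPM untreated, 77.3, 71.4 and 70.2 CPM at 8 h, and 44.6, 47.3 and 43.0 CPM at 24 h, at 0.30 (adjusted p = 0.00183) and -0.40 (adjusted p = 1.79e-04).

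RRP1B and DDX21 also peaked at 8 h. RRP1B, a nucleolar protein that also binds a phosphatase, was at 104, 113 and 112 CPM untreated, 130, 128 and 127 CPM at 8 h, and 102.3, 101.5 and 102.7 CPM at 24 h. The rise was 0.22 (edgeR adjusted p = 1.9e-04), and the fall below untreated cells at 24 h, -0.10 (adjusted p = 0.0366), was called in 1 of 6 fits without 1 library and not by DESeq2. DDX21, an RNA helicase of the nucleolus, was at 372, 450 and 429 CPM untreated, 520, 492 and 486 CPM at 8 h, and 366, 344 and 369 CPM at 24 h. The log2 fold changes of DDX21 were 0.26 (adjusted p = 0.00133) and -0.21 (adjusted p = 0.00496), with its 3 groups apart.

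Another set of large subunit genes fell at 24 h without a called rise before it. NIP7, a factor of precursor RNA processing, was at 53.5, 66.6 and 62.1 CPM untreated, 59.9, 55.9 and 53.5 CPM at 8 h, and 43.4, 44.8 and 43.8 CPM at 24 h. At 8 h the log2 value was -0.11 (edgeR adjusted p = 0.19), called lower without untreated replicate 1 (-0.19, adjusted p = 0.0051), and -0.47 at 24 h (adjusted p = 2.22e-05). PPAN, BRIX1 and GNL3, the last known as nucleostemin, were likewise not called at 8 h (0.15, 0.03 and -0.0024) and fell at 24 h (-0.28, -0.26 and -0.22). For PPAN 49.2% of exon bases are shared with P2RY11 or with its readthrough into P2RY11. The readthrough row held at most 2 counts in a library. As reads that fit more than 1 gene are by default not assigned, this row cannot show how much readthrough there was. GNL3L, the nucleolar GTPase related to GNL3, was instead higher at both times, at 0.38 (adjusted p = 3.08e-05) and 0.21 (adjusted p = 0.00422).

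Of the 6 genes of RNA polymerase I and its factors 4 rose, UBTF fell and RRN3 was not called at 8 h. At 24 h UBTF fell and the other 5 were not called. The rises at 8 h were 66.7% of the 6, beside 25.2% of all genes tested. The fall of UBTF was 16.7% of the 6 at each time, below the 24.5% and 26.8% of all genes tested. The catalytic core subunits POLR1A and POLR1B rose by like amounts at 8 h, 0.43 (edgeR adjusted p = 5.72e-06) and 0.42 (adjusted p = 4.29e-05), and were at 0.05 and 0.06 at 24 h (adjusted p = 0.475 and 0.451). TAF1D, a subunit of the selectivity factor that recruits the polymerase to ribosomal DNA, was at 58.0, 68.7 and 64.9 CPM untreated, 106, 90.9 and 94.0 CPM at 8 h, and 73.2, 65.7 and 73.6 CPM at 24 h. Its rise was 0.60 (adjusted p = 2.64e-06), and at 24 h it was at 0.15 (adjusted p = 0.0772), called higher there without untreated replicate 2 (0.20, adjusted p = 0.0245). RRN3, the initiation factor that links the polymerase to its promoter, was not called at either time, at 0.12 (adjusted p = 0.104) and 0.0020 (adjusted p = 0.98), but was called higher at 8 h without untreated replicate 2 (0.17, adjusted p = 0.0274).

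MYBBP1A, a nucleolar protein known to repress ribosomal gene transcription, rose at 8 h by nearly as much as UTP20. It lies on chromosome 17 from 4538897 to 4555386 and was at 161, 200 and 189 CPM untreated, 304, 306 and 315 CPM at 8 h and 176, 176 and 162 CPM at 24 h. The rise was 0.75 (SE 0.06, edgeR adjusted p = 1.03e-07), and the 24 h libraries were within the untreated range (-0.10, adjusted p = 0.191) and were called lower without untreated replicate 1 (-0.18, adjusted p = 0.00133). UBTF, the factor that binds and opens ribosomal DNA for the polymerase, fell instead. Its levels were 203, 210 and 206 CPM untreated, 174, 179 and 181 CPM at 8 h, and 182, 188 and 182 CPM at 24 h, all TEPA libraries below all untreated ones. The UBTF fold changes were -0.21 (SE 0.03, adjusted p = 1.08e-04) and -0.17 (SE 0.03, adjusted p = 7.92e-04), and no difference between the times was called (0.05, adjusted p = 0.272).

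Of the members, 8 hold 33 genes of small nucleolar or Cajal body RNAs within their bounds on the same strand in GENCODE 44: NOP56, NOP58, DKC1, NCL, WDR43, PPAN, GNL3 and TAF1D. At 8 h, 6 of these 8 rose, where 67.5% of all 40 members and 25.2% of all genes tested did, and PPAN and GNL3 were not called. Without untreated replicate 1, NOP58, DKC1 and WDR43 lost their calls (edgeR adjusted p = 0.19, 0.186 and 0.125), which left 3 of 8, beside 23 of all 40 members. TAF1D holds the most, 8, and NOP56 holds 5. The small RNAs themselves were not measured in these poly(A)-selected libraries.

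The other genes of the pathway, 130 in 5 lists and all tested, moved in the same directions by smaller medians. At 8 h 64 rose and 12 fell, at a median log2 value of 0.12, and at 24 h 57 fell and 15 rose, with a median of -0.10 (edgeR's quasi-likelihood test). These were 49.2% higher and 9.23% lower at 8 h, beside 25.2% and 24.5% of all genes tested, and 43.8% lower and 11.5% higher at 24 h, beside 26.8% and 25.7%. Without untreated replicate 1 the numbers were 47 higher and 14 lower at 8 h and 73 lower and 10 higher at 24 h. Between 8 h and 24 h 84 fell (64.6%) and 9 rose (6.92%), with a median of -0.24, where 28.8% of all genes tested fell and 26% rose. Of 42 other small subunit genes 23 rose and 2 fell at 8 h and 18 fell and 7 rose at 24 h, and the kinase RIOK2, which acts late on the small subunit, fell at both times (-0.63 and -1.23). DDX47 rose the most at 8 h (0.91) and FCF1 at 24 h (0.29). Of 48 other large subunit genes 26 rose and 4 fell at 8 h and 25 fell and 3 rose at 24 h. NLE1, a partner of the giant ATPase MDN1, had the largest fall at 24 h (-1.39, adjusted p = 2.16e-10), while MDN1 itself was higher at both times (0.60 and 0.67), and TMA16 fell the most at 8 h (-0.39).

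Among 15 other genes of RNA polymerase I 4 rose (26.7%, near the 25.2% of all genes tested) and 2 fell at 8 h, and 5 fell (33.3%, beside 26.8%) and 2 rose at 24 h. POLR1G, a subunit particular to polymerase I, rose at 8 h (0.78, edgeR adjusted p = 2.01e-06), whereas POLR2L, a small subunit that all 3 nuclear polymerases share, fell (-0.31). At 24 h POLR1E fell the most (-0.42) and POLR2H rose the most (0.25). Of 14 RNA exosome genes, which trim the precursor RNA, 7 rose (50%, beside 25.2%) and 1 fell (7.14%, beside 24.5%) at 8 h. At 24 h 5 fell (35.7%, beside 26.8% of all genes tested) and 2 rose (14.3%, beside 25.7%). EXOSC9 rose the most at 8 h (0.25) and DIS3 at 24 h (0.24), and MPHOSPH6 fell the most at both times (-0.16 and -0.38). Of 11 snoRNP assembly genes 4 rose (36.4%) and 3 fell (27.3%, near the 24.5% of all genes tested) at 8 h. At 24 h 4 fell (36.4%, beside 26.8%) and 1 rose (9.09%, beside 25.7%). TCOF1 was the highest (0.38) and ZNHIT6 the lowest (-0.27) at 8 h, and ZNHIT3 the highest (0.19) and PIH1D1 the lowest (-0.44) at 24 h.

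The 79 cytosolic ribosomal protein genes, the structural parts that these factors assemble, had medians nearer 0. At 8 h 17 rose and 5 fell, at a median log2 value of 0.04, and at 24 h 22 fell and 4 rose, with a median of -0.04 (edgeR's quasi-likelihood test). The 21.5% that rose at 8 h and the 27.8% that fell at 24 h were near the 25.2% and 26.8% of all genes tested. Shares in the opposite directions were smaller, with 6.33% lower at 8 h beside 24.5% and 5.06% higher at 24 h beside 25.7%. Between the times 35 fell (44.3%) and 9 rose (11.4%), where 28.8% of all genes tested fell and 26% rose. The median was -0.08, beside -0.38 for the 40 genes of ribosome biogenesis. The difference between the lists was not tested.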

How the data were processed

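RNA-Seq of 9 MDA-MB-231 libraries was analysed. The authors checked paired-end reads with FastQC, aligned them to hg38 with HISAT2 and counted them per gene name over exons with featureCounts, using strand and Ensembl annotation 103. The deposited values are raw counts, 1 column per replicate, for 59453 names, and every column was used. In R 4.3.3, genes were kept with filterByExpr of edgeR 4.0.16 (minimum count 10), scaled by TMM (factors 0.978 to 1.039) and fitted in 1 quasi-likelihood model without covariates. The biological coefficient of variation was 0.0481. Each SE was derived from the fold change and its F statistic. Benjamini-Hochberg adjustment covered 16556 genes, and edgeR adjusted p in the text means this test. DESeq2 1.42.0, the tool of the study, was an alternative. The members and lists were chosen with earlier results of these data known. Levels by library are given for the 2 largest called changes per role and time and for genes called in opposite directions at the times, and for the other pathway lists the largest called rise and fall per time. The fit was tested on simulated data. Alternatives were other scalings, filters and sample sets, each library left out, a replicate block and a log2 limit of 0.5. Gene bounds are from GENCODE 44 on hg38.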

Additional observations from a re-analysis of the deposited data

Results flagged for a closer look

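Levels in cells given TEPA differed between 8 h and 24 h for 34 of the 40 genes. The test was a direct edgeR quasi-likelihood test of 24 h against 8 h (Benjamini-Hochberg adjusted p from 1.23e-08 to 0.0436). All 34 were lower at 24 h. The untreated libraries cancel in this difference. No untreated cells were kept for each time, so longer TEPA and longer time in culture cannot be told apart here. Among box C/D proteins the log2 differences were -0.79 for NOP56, -0.42 for FBL and -0.38 for NOP58. Box H/ACA proteins and their chaperone gave log2 differences of -0.34 for DKC1, -0.32 for NOLC1 and -0.21 for GAR1. For the abundant nucleolar proteins the log2 differences were -0.57 for NPM1 and -0.41 for NCL. In small subunit processing the log2 differences were -0.69 for NOP14, -0.68 for RRP9, -0.63 for RRP12, -0.51 for WDR75, -0.50 for UTP20, -0.48 for WDR43, -0.34 for LTV1, -0.30 for UTP4, -0.30 for BYSL and -0.24 for NOB1. Large subunit processing gave log2 differences of -1.08 for NOP2, -0.78 for BOP1, -0.70 for NOP16, -0.68 for PES1, -0.55 for RRS1, -0.47 for DDX21, -0.44 for PPAN, -0.36 for NIP7, -0.33 for RRP1B, -0.29 for BRIX1, -0.22 for GNL3 and -0.17 for GNL3L. For RNA polymerase I the log2 differences were -0.85 for MYBBP1A, -0.45 for TAF1D, -0.38 for POLR1A and -0.36 for POLR1B. With 1 library left out in turn, GAR1 was called in 2 of 6 fits (-0.12, adjusted p = 0.255 without TEPA 8 h replicate 1), GNL3L in 5 (-0.16, adjusted p = 0.0515 without TEPA 8 h replicate 3), and every other gene in all 6. Groups of 3 are too small for a test of single outlying libraries.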

How the results depend on the processing

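Across RLE and upper-quartile factors, DESeq2, no filter, a filter of 10 counts in every library, only the groups compared and library sizes without mitochondrial genes, the numbers of members called stayed within 1.5 times the values given, with medians from 0.22 to 0.25 at 8 h, from -0.19 to -0.16 at 24 h and from -0.38 to -0.35 between the times. Leaving out 1 library gave 23 to 28 higher and 3 to 5 lower members at 8 h, 20 to 30 lower and 2 to 5 higher at 24 h, and 32 to 34 lower between the times, and 4 to 9 other pathway genes higher between the times, with 4 without TEPA 8 h replicate 2 or 3. Untreated replicate 1 gave the 5 lower at 8 h and the 2 higher and 30 lower at 24 h. Deviations of same-numbered libraries correlated from -0.1 to 0.0819, and those of differently numbered libraries from -0.148 to 0.137. With 3 libraries a group such values cannot show whether libraries were paired, and the labels do not say. With the replicate block, 26 members were higher and 3 lower at 8 h, 22 lower and 3 higher at 24 h, and 33 lower between the times. The log2 limit of 0.5 left 6 higher and 0 lower members at 8 h, 1 lower and 0 higher at 24 h, and 12 lower between the times, since most changes were smaller. Counting only motifs wholly before the start lowered the share of members with CACGTG from 44.1% to 11.8%, and counting only those reaching or past the start, chosen after the data were seen, gave 32.4%. Of 92 calls of single members, 80 were made under every alternative other than the log2 limit, and none reversed. NOP2 had the fewest counts of the members, 24 to 96 per library.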

Other observations

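RRN3P3, a pseudogene of the initiation factor RRN3, held 70, 116 and 87 counts without TEPA, then 153, 153 and 142 after 8 h, then 312, 198 and 183 after 24 h, while RRN3 itself was not called at either time. Reads that fit the gene and its copies equally cannot be assigned with certainty. PDGFRB, listed as a fibroblast marker, was between 28.6 and 41.2 CPM in untreated cells, between 24.3 and 28.9 CPM at 8 h, and between 91.0 and 99.4 CPM at 24 h. DCN and LUM of the same list were at most at 0.0784 and 0.255 CPM.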
